A study of Mus musculus with 9 samples.

Results

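The cytosolic ribosomal protein genes encode the proteins of the ribosome that works outside the mitochondria. They were taken from the arrays by gene symbol: Rpl or Rps followed by a digit, together with Rpsa, Rplp0, Rplp1 and Rplp2, leaving out the S6 kinases, the Rps19 binding protein gene and pseudogenes named as such. Of 32450 genes or identifiers on the array, 85 were members, 33 of the small and 52 of the large subunit, read by 171 of 39429 probes. The other 9 symbols that fit the rule, Rps23 among them, had no probe matched to them and were not analysed here. Rps4l is annotated as a transcribed pseudogene and Rps23rg1, by its name a retrogene of Rps23, as protein-coding. Both stayed in, and were counted with the small subunit, because their symbols fit. Whether they encode proteins of the ribosome was not tested.

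RNA from sorted male mouse cells was hybridised to 9 Agilent one-colour arrays, 3 in each of 3 groups. Primordial germ cells (PGCs) give rise to sperm and eggs. They were sorted as live cells with GFP out of genital ridges at E13.5, from a cross of MCH x C57BL6/J mice with the Oct4ΔPE-GFP transgene. Max knockdown cells were VV3 embryonic stem (ES) cells, a 129SV line with the fluorescent reporter Venus under the promoter of the germ cell gene Vasa (Ddx4). They were collected 3 days after transfection with siRNA against Max, and only live, Venus-positive cells were kept. Control cells were VV3 ES cells given the non-silencing siRNA AllStars and sorted after the same 3 days as live cells without a Venus gate, so siRNA and gate differ together between the ES cell groups. PGCs differ from both ES cell groups in strain, in coming from an embryo and in the slides that held their arrays, and these cannot be told apart here. The replicates were biological according to the study's design text.

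A ribosome has a small subunit, which decodes the mRNA, and a large subunit, which joins the amino acids. Its proteins are made in matched amounts, and their mRNAs often begin with a run of pyrimidines, the terminal oligopyrimidine (TOP) start, through which mTOR signalling controls their translation. MYC, which binds CACGTG sites only as a pair with MAX, is known to raise the transcription of many genes of ribosome production. MAX also pairs with MGA in a Polycomb complex that silences germ cell genes in ES cells. In the male germ line, genes of the X chromosome are shut down at meiosis, and autosomal copies of X-linked ribosomal protein genes, such as Rpl10l and Rpl39l, are expressed there.

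Promoter sequence was available from RefSeq (GRCm38.p6) for 64 of the 85 genes, at 76 annotated starts, each from 250 bases before to 50 bases after the start. The 120 bases before the start are shown for both members that rose after Max knockdown (Rpl10l and Rpl39l), for the member that fell most (Rpl22l1) and for Rpl19, as an example with the site that MAX pairs bind. They are chr12:66284402-66284521 (minus strand), chr16:10170108-10170227 (plus strand), chr3:28805388-28805507 (plus strand) and, for the first of the starts of Rpl19, chr11:98026590-98026709 (plus strand). Capitals mark CACGTG and CCGGAA, the core read by ETS factors such as GABP, which is TTCCGG on the other strand.
Rpl10l: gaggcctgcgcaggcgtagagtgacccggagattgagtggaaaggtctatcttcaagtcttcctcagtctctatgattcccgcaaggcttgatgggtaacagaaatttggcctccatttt
Rpl39l: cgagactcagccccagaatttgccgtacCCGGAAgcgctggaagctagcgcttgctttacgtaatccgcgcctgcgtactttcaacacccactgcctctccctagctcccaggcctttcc
Rpl22l1: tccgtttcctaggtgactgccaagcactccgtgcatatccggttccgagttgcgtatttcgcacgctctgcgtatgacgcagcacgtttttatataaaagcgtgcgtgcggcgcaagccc
Rpl19: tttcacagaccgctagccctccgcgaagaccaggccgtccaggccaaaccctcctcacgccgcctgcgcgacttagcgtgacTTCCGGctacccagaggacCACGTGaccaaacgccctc
Neither Rpl10l nor Rpl39l held CACGTG in its 300-base window.

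Over both strands, CACGTG stood in 10.5% of the 76 member promoters, against 7.15% of the 32851 promoters in the table. CCGGAA stood in 47.4% of member promoters, against 14.9% of all, and AAGATGGC, a YY1 core, in 10.5% against 2.75%. A TOP start, here a C within 10 bases of the annotated start followed on the sense strand by at least 5 pyrimidines, was found in 46.1% of member promoters, against 19.2% of all. The motifs were counted separately and their matches can share bases, and a match describes the window only. The genes with CACGTG were Rpl13a, Rpl14, Rpl19, Rpl23, Rpl34 and Rps19. After Max knockdown 1 of these 6, Rps19, was called lower (limma adjusted p under 0.05), where 22.0% of all genes tested were. Rps19 is described with its values further on.

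The knockdown was visible in Max itself, whose log2 signal relative to the array's 75th percentile was 3.77, 3.65 and 3.57 in PGCs, 0.59, 0.83 and 1.13 in Max knockdown cells, and 2.84, 2.74 and 2.86 in controls. The knockdown arrays lay below all others, 3.90-fold below control (limma, adjusted p = 2.96e-05). On each array 58.2% to 67.6% of spots were well above background, no spot was saturated, and across genes the arrays of a group correlated at 0.991 to 0.995. Summed over 8 germ cell markers, Ddx4 and Dazl among them, the log2 level was 6.99 to 7.19 in PGCs, 5.19 to 5.35 in Max knockdown cells and 3.31 to 3.44 in controls. Over 8 ES cell markers it was 7.14 to 7.48, 8.13 to 8.20 and 8.04 to 8.07 in the same order. Such sums are led by the brightest genes, and the knockdown cells were sorted on the Ddx4 promoter, so Ddx4 is not independent of the gate. Of the 8 germ cell markers, 4 were called higher after knockdown in limma, with log2 differences from -0.32 to 4.49 over the list. Summed fibroblast markers (7 probed) stood at 0.0079 to 0.41 in PGCs, 0.15 to 0.29 in Max knockdown cells and 1.57 to 1.91 in controls. Gonadal somatic markers (9 probed) stood at 1.68 to 2.54 in PGCs, 1.19 to 1.66 in Max knockdown cells and 1.62 to 2.03 in controls, and blood and endothelial markers (7 probed) at 1.40 to 2.01, 0.93 to 1.53 and 0.73 to 1.23. Of the 9 gonadal somatic markers, 8 were above background on every PGC array, 6 on every Max knockdown array and 8 on every control array. Of the 7 fibroblast markers, 4, 3 and 5 were, in the same order. Amh, the Sertoli cell hormone gene, stayed below the background criterion on all ES cell arrays, and Postn, a fibroblast marker, on all 9 arrays. The part of such cells in the results below was not tested, and in a sorted population fewer cells with a transcript and less of it per cell cannot be told apart.

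Every member was well above background on all 9 arrays. Their signals, which also depend on the probe, were mostly high: 78 of the 85 lay in the brightest 10% of the 20443 genes tested, and the mean log2 signal of the members relative to the 75th percentile ran from -1.93 for the dimmest to 8.40 for the brightest, with a median of 7.33. The median over the members was 7.46, 7.71 and 7.61 on the PGC arrays, 7.12, 7.01 and 7.11 on the Max knockdown arrays, and 7.18, 7.21 and 7.29 on the control arrays. The PGC arrays were above all ES cell arrays, and the knockdown arrays lay just below the control arrays, with no overlap. Small subunit genes gave 7.45 to 7.66 in PGCs, 7.03 to 7.20 in Max knockdown cells and 7.28 to 7.39 in controls. Large subunit genes gave 7.55 to 7.74, 6.92 to 7.11 and 7.11 to 7.25 in that order, with the highest knockdown array just under the lowest control array.

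All directions that follow are for arrays scaled on their 75th percentile, and those of PGCs depend on it. Scaled instead on the spike-in transcripts added to the RNA, the log2 differences of all genes in PGCs moved by -0.96 against control and by -0.98 against Max knockdown cells, and those after knockdown moved by 0.023. The spike-in signal followed the slide: relative to it, the 75th percentile was -2.25, -3.22 and -3.05 log2 units on the PGC arrays, -1.63, -1.44 and -2.50 on the Max knockdown arrays and -1.48, -1.50 and -2.67 on the control arrays. The 4 arrays of the first slide lay between -1.63 and -1.44, and the other 5 at -2.25 or below. Among those 5, the ES cell arrays of the second slide (-2.67 and -2.50) lay within the range of the PGC arrays. The spike-in shift of PGCs against ES cells therefore cannot be told apart from the slide. Relative to the median of all genes tested, the member median was 0.19 above in PGCs against control, 0.35 above in PGCs against Max knockdown cells and 0.16 below after knockdown. Scaling on the array median or the spike-in transcripts moves all genes alike and cannot change these gaps. Quantile normalization can, and gave 0.090 and 0.084 above in PGCs and 0.00081 above after knockdown. Without the filter on dim genes the all-gene median in PGCs against control was 0.50, and the members lay 0.13 below it. Rpl10l kept its rise after knockdown under all of these scalings in limma, and Rpl39l kept it except with spike-in scaling (log2 difference 1.08, adjusted p = 0.34).

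**Figure D1:**
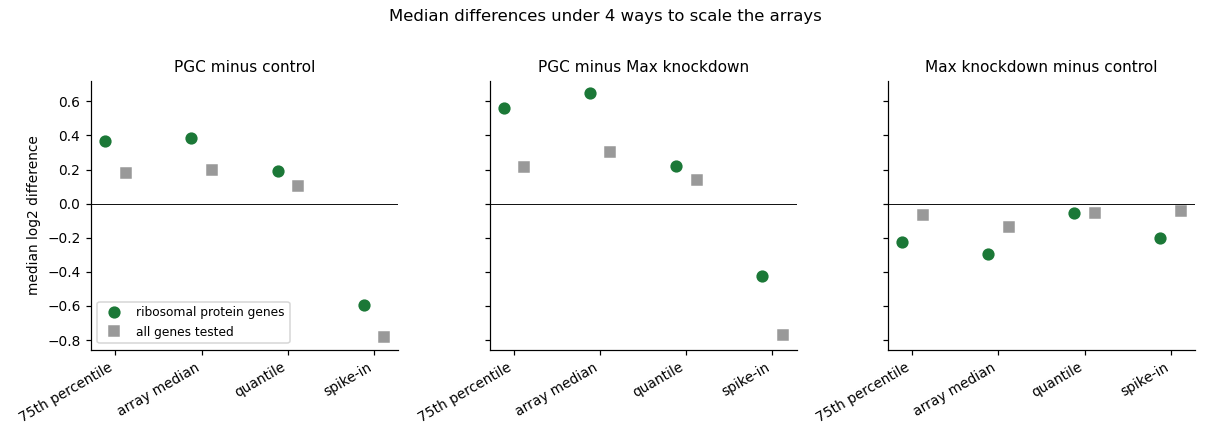
Median log2 difference of the 85 members (green circles) and of all genes tested (grey squares) with arrays scaled on the 75th percentile, the array median, by quantiles or on spike-in transcripts, in each comparison. Both medians fall below 0 with spike-in scaling in the PGC comparisons, and the member and all-gene medians meet with quantile normalization after knockdown.

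In PGCs against control ES cells, 57 of the 85 members rose (67.1%) and 2 fell at a limma adjusted p under 0.05, where with spike-in scaling 1 rose and 2 fell. Of all genes tested, 43.2% rose and 32.4% fell. The median log2 difference of the members was 0.36, against 0.18 over all genes. Large subunit genes rose in 38 of 52 cases with none lower (also 0 at an unadjusted p under 0.05), and small subunit genes rose in 19 of 33 with 2 lower. Most rises were small, since only 3 members (Rpl39l, Rpl10l and Rpl21) passed 2-fold, where 40.0% of all genes did. The other Rpl21 probe was called lower, as described further on. Other genes in the same brightest 10%, 1967 in number, had a median difference of 0.28 and rose in 51.0% of cases, against 0.35 and 52 of 78 for the members there. With spike-in scaling the median member difference was -0.60, against -0.78 over all genes.

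In PGCs against Max knockdown cells, 76 of 85 members rose (89.4%) and 2 fell, where with spike-in scaling none rose in limma (0 at an unadjusted p under 0.05) and 2 fell. The counts with the 75th percentile stand against 44.9% higher and 31.4% lower among all genes, shares that do not apply to the spike-in counts. The median log2 difference was 0.56, against 0.22 over all genes. By subunit, 48 of 52 large and 28 of 33 small subunit genes were higher. The 6 members past 2-fold (against 40.1% of all genes) were Rpl21, Rpl39l, Rpl22l1, Rpl26, Rpl23a and Rpl36a. In this comparison too the other Rpl21 probe was called lower. Other genes of the brightest 10% had a median of 0.43, against 0.56 for the members there. With spike-in scaling the member median was -0.42, against -0.77 over all genes. Quantile normalization left fewer members that rose, as given with the other settings below.

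After Max knockdown, 23 of 85 members fell against control (27.1%) and 2 rose, while 22.0% of all genes fell and 18.1% rose. The share that fell was thus near that of all genes. The differences were narrow and mostly in the same direction: 80 of 85 were below 0, with a median log2 difference of -0.23, against -0.07 over all genes. By subunit, 12 of 52 large and 11 of 33 small subunit genes fell. Only the rising genes Rpl10l and Rpl39l passed 2-fold, where 11.1% of all genes did. Among the other genes of the brightest 10% the median was -0.15 and 25.7% fell. With quantile normalization 7 members fell, and the member median was -0.054, against -0.055 over all genes. With spike-in scaling the member median was -0.20, against -0.044 over all genes, and 7 of 85 members were above 0. None fell in limma there (0 at an unadjusted p under 0.05). The spike-in level differed between the slides within each ES cell group, which widened the spread. That count therefore cannot tell whether falls of this size are absent. With slide as a block 31 fell, within the 4 arrays of slide 1 alone 6 fell, and with the replicate number as a block over those 4 arrays 8 fell. Under the 75th percentile, leaving out knockdown replicate 2 or control replicate 3 left 10. Leaving out knockdown replicate 1, control replicate 1 or control replicate 2 left 14, 15 and 13. Beside these member counts, 4315 of the 20443 genes tested fell with quantile normalization and 290 with spike-in scaling. With the slide block 5341 of all genes fell, with the replicate block 4016, and 3053 did within slide 1 alone.

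**Figure D2:**
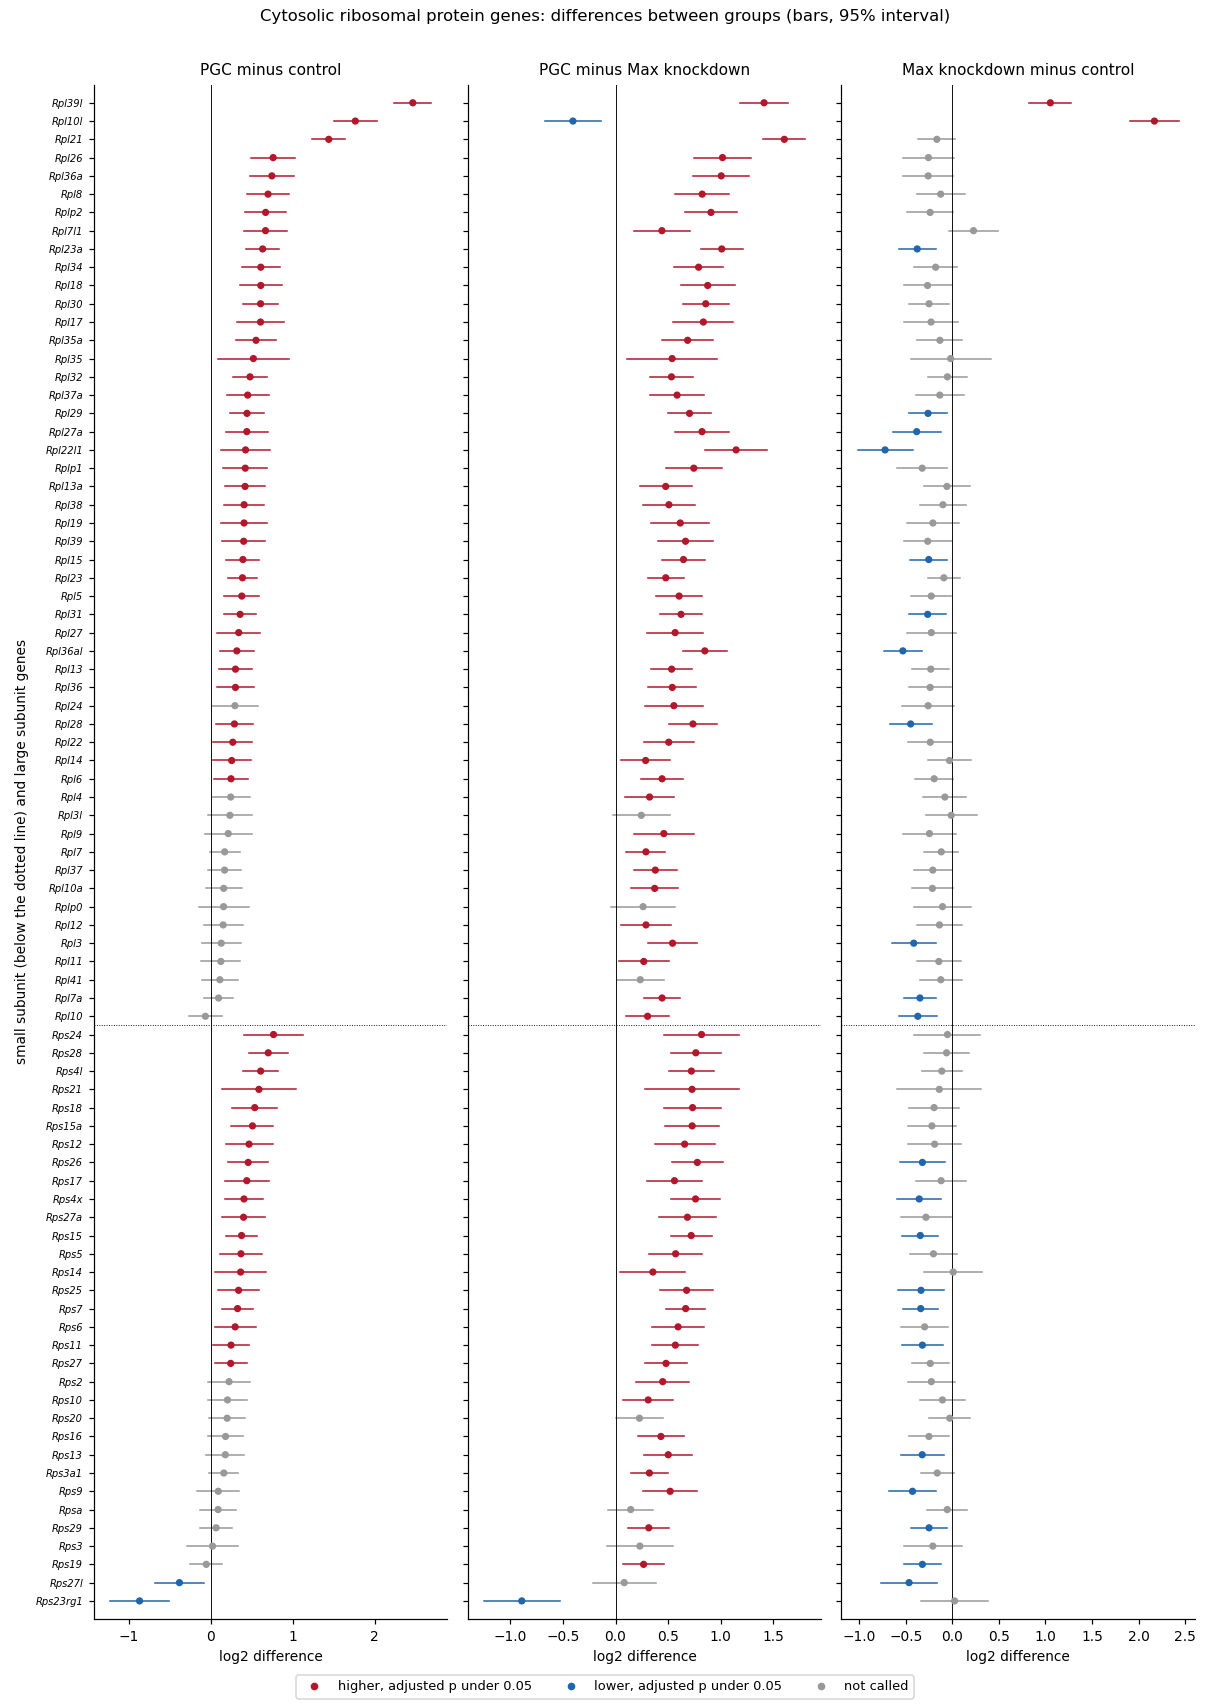
Log2 difference of 83 of the 85 members (points) with its 95% interval (bars) in PGCs against control, PGCs against Max knockdown, and Max knockdown against control, with arrays scaled on the 75th percentile and genes ordered within each subunit by the first panel. Rpl39l and Rpl10l stand far to the right in both comparisons with control, and most of the other genes lie between 0 and 1 in PGCs (with spike-in scaling their median is below 0) and between -0.5 and 0 after knockdown.

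**Figure D3:**
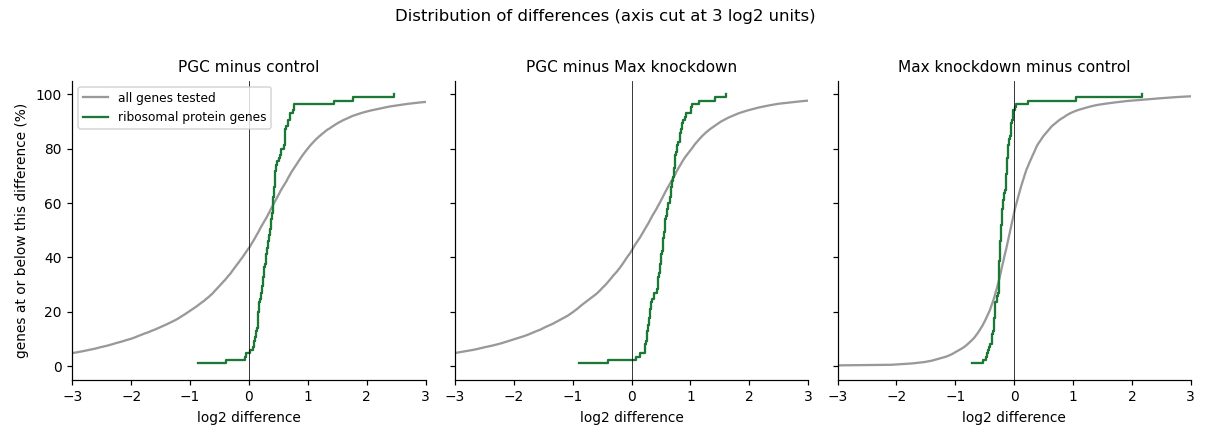
Cumulative share of genes (vertical axis, %) at or below a log2 difference (horizontal axis), for the 85 members (green) and all 20443 genes tested (grey), in each comparison. With the 75th percentile scaling shown, the member curves are steep and lie mostly right of 0 in both PGC comparisons, which spike-in scaling turns, and mostly left of 0 after knockdown, while the curves of all genes spread to both sides.

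Paralogs gave 3 of the largest differences among the members. Rpl10l, an autosomal retrocopy of the X-linked Rpl10 that male meiosis needs, had a relative log2 signal of 3.66, 3.60 and 3.91 in PGCs, 4.21, 4.01 and 4.17 in Max knockdown cells and 1.83, 1.95 and 2.09 in controls. The 3 groups did not overlap, and the knockdown arrays were the highest. It rose 4.50-fold after knockdown (log2 difference 2.17 ± 0.12 SE, limma adjusted p = 9.00e-06) and 3.40-fold in PGCs against control (1.77 ± 0.12, adjusted p = 1.61e-06). PGCs were 0.41 below Max knockdown cells on the log2 scale (adjusted p = 0.011). A second Rpl10l probe gave 2.14, 1.75 and -0.39 for the same 3 differences. Its partner Rpl10, a core protein of the large subunit, had 7.82, 8.04 and 7.92 in PGCs, 7.65, 7.53 and 7.69 in Max knockdown cells and 7.97, 7.97 and 8.04 in controls. Only the knockdown arrays stood below, by 0.37 (adjusted p = 0.010), and PGCs and controls overlapped (log2 difference -0.066, adjusted p = 0.52).

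Rpl39l, a retrocopy of the X-linked Rpl39 whose protein lines the exit tunnel, had 4.41, 4.36 and 4.54 in PGCs, 2.95, 3.00 and 3.11 in Max knockdown cells and 2.12, 1.92 and 1.86 in controls. The groups formed 3 separate steps with PGCs on top. It was 5.53-fold higher in PGCs than in controls (log2 difference 2.47 ± 0.10 SE, limma adjusted p = 1.10e-07) and 2.07-fold higher after knockdown (1.05 ± 0.10, adjusted p = 0.00012). Against Max knockdown cells, PGCs were 2.67-fold higher. Rpl39 had 6.58, 6.81 and 6.68 in PGCs, 6.11, 5.87 and 6.10 in Max knockdown cells and 6.19, 6.22 and 6.46 in controls. It rose by 0.40 in PGCs against control (adjusted p = 0.011), and its difference after knockdown, -0.26, did not pass (adjusted p = 0.098).

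Rpl22l1, a paralog whose transcript is held down by the Rpl22 protein in other cells, went the other way after knockdown. Its relative log2 signal was 6.26, 6.45 and 6.57 in PGCs, 5.30, 5.10 and 5.43 in Max knockdown cells and 5.85, 5.98 and 6.17 in controls. The knockdown arrays were lowest and the PGC arrays highest, without overlap. It fell 1.65-fold after knockdown (log2 difference -0.72 ± 0.13 SE, limma adjusted p = 0.0027), the deepest fall among the members. In PGCs it rose 1.34-fold against control (0.43, adjusted p = 0.015) and 2.22-fold against Max knockdown cells. The rise against control was lost without PGC replicate 3 or control replicate 1 (highest adjusted p = 0.056). Rpl22 itself differed by -0.24 after knockdown (adjusted p = 0.10) and by 0.27 in PGCs against control (adjusted p = 0.042, up to 0.12 when 1 array was left out).

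Of the other pairs, Rpl36al, an intron-less copy of Rpl36a, fell by 0.53 after knockdown (adjusted p = 0.0021) and rose by 0.32 in PGCs against control (adjusted p = 0.011). Rpl36a rose by 0.75 in PGCs and differed by -0.26 after knockdown (adjusted p = 0.11). Rps27l, a p53 target that can replace Rps27, was 5.43, 5.95 and 5.65 in PGCs, 5.67, 5.46 and 5.65 in Max knockdown cells and 6.05, 6.07 and 6.06 in controls. The controls lay above all other arrays, by 0.47 over Max knockdown cells (adjusted p = 0.022) and by 0.38 over PGCs (adjusted p = 0.026). Both falls of Rps27l were weak, since the first was lost in 4 and the second in 5 of the 9 fits without 1 array, with adjusted p up to 0.076 and 0.080. Rps27 differed by -0.24 after knockdown (adjusted p = 0.057) and by 0.24 in PGCs against control (adjusted p = 0.029, up to 0.088 without 1 array).

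Rps4l rose by 0.61 in PGCs against control and Rps4x, the X-linked gene of small subunit protein S4, by 0.41 (adjusted p = 0.00034 and 0.0063). Whether the Rps4l probe also reads Rps4x was not tested. After knockdown Rps4x fell by 0.36 (adjusted p = 0.025, up to 0.085 without 1 array) and Rps4l differed by -0.11 (adjusted p = 0.38). Rpl7l1, a nucleolar paralog of Rpl7, rose by 0.67 in PGCs against control (adjusted p = 0.00073), where Rpl7 differed by 0.17 (adjusted p = 0.085). After knockdown their differences were 0.23 and -0.12, neither past the test. Rpl3l, the muscle paralog of Rpl3, gave a low signal, with -1.69, -1.93 and -1.70 in PGCs, -2.17, -2.06 and -1.82 in Max knockdown cells and -2.09, -2.04 and -1.89 in controls, and no comparison of it passed. Rpl3, which shapes the peptidyl transferase centre, fell by 0.41 after knockdown (adjusted p = 0.013) and differed by 0.13 in PGCs against control (adjusted p = 0.28).

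**Figure D4:**
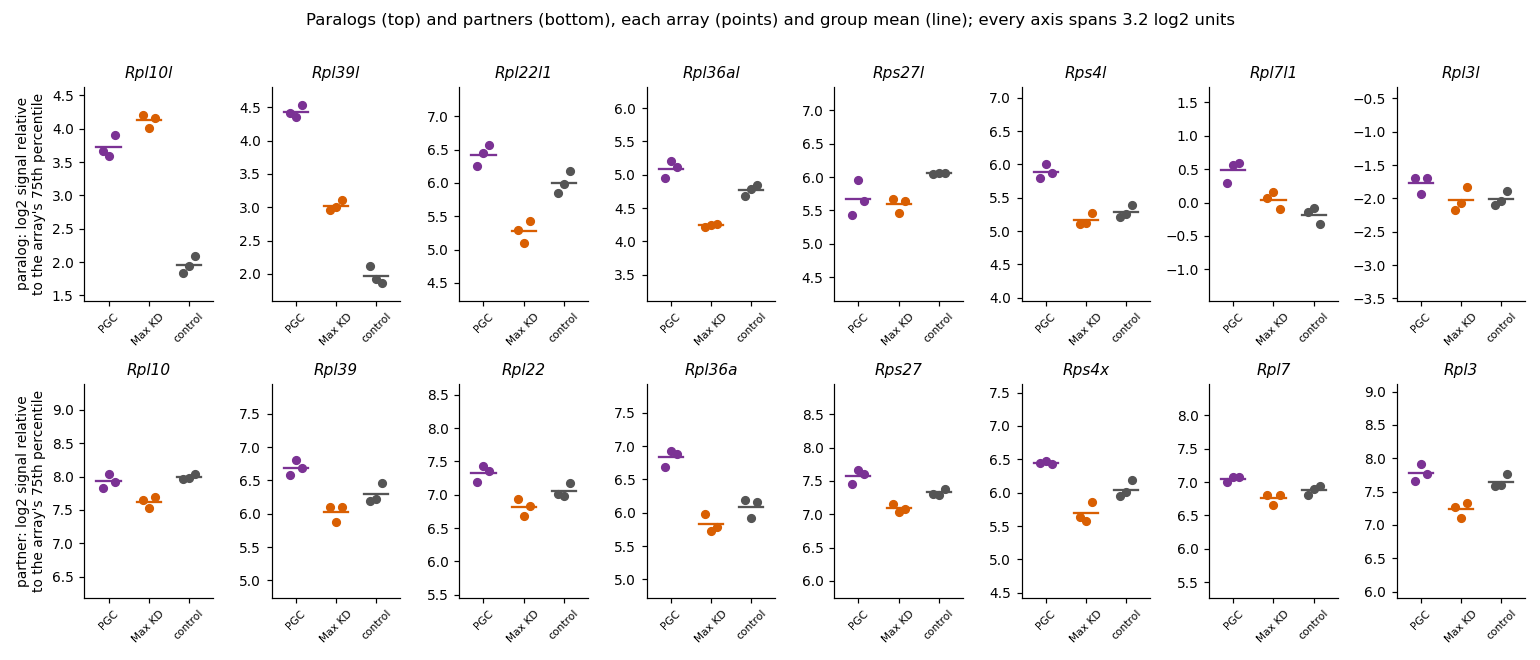
Relative log2 signal of 8 paralogs (top row) and their partners (bottom row) on each array (points) with the group mean (line), in PGCs, Max knockdown cells and controls. Every axis spans the same number of log2 units, and levels are not comparable between panels. Rpl10l and Rpl39l are the genes whose control arrays lie furthest below the rest, while Rpl10 and Rpl39 vary by less than 1 log2 unit.

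Rps23rg1 was the member that fell most in PGCs. Its relative log2 signal was -2.08, -1.81 and -1.64 in PGCs, -0.78, -1.18 and -0.89 in Max knockdown cells and -0.84, -1.20 and -0.89 in controls. The ES cell groups overlapped fully, and the PGC arrays lay below both. The log2 difference was -0.87 ± 0.16 SE against control (limma adjusted p = 0.00097) and -0.89 against Max knockdown cells (adjusted p = 0.00081).

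Rplp1 and Rplp2, the acidic stalk proteins that recruit elongation factors, rose in PGCs against control by 0.42 and 0.67 (adjusted p = 0.0099 and 0.00050). Rplp0, the base of the stalk, differed by 0.16 (95% interval -0.15 to 0.46, adjusted p = 0.31). Rpsa, a small subunit protein that also serves as a laminin receptor, had 7.81, 8.09 and 7.94 in PGCs, 7.84, 7.73 and 7.85 in Max knockdown cells and 7.83, 7.82 and 7.93 in controls, and its groups overlapped in every comparison. After knockdown, the differences were -0.11 for Rplp0, -0.32 for Rplp1, -0.24 for Rplp2 and -0.055 for Rpsa, none past the test.

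Rpl5 and Rpl11, which with the 5S RNA bind MDM2 when ribosome assembly is disturbed, differed by 0.38 and 0.12 in PGCs against control (adjusted p = 0.0056 and 0.30). After knockdown their differences were -0.23 and -0.15 (adjusted p = 0.089 and 0.30). Rps6, the S6 kinase substrate, differed by -0.30 after knockdown (adjusted p = 0.059). It rose by 0.30 in PGCs (adjusted p = 0.034, up to 0.10 without 1 array). Rps27a, made as a fusion with ubiquitin, rose by 0.40 in PGCs (adjusted p = 0.013) and differed by -0.28 after knockdown (adjusted p = 0.086). Rps19, the gene most often mutated in Diamond-Blackfan anaemia, had 5.96, 6.11 and 5.9996 in PGCs, 5.75, 5.72 and 5.81 in Max knockdown cells and 5.96, 6.12 and 6.15 in controls. Its knockdown arrays were below all others, by 0.32 against control (adjusted p = 0.017). That call was lost without knockdown replicate 2, control replicate 2 or control replicate 3 (highest adjusted p = 0.063).

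Among further members, Rpl28, a large subunit protein, was in the 5 deepest falls after knockdown, at -0.45 ± 0.10 SE (adjusted p = 0.0075). It was 0.29 above control in PGCs (adjusted p = 0.026, up to 0.081 without 1 array). Rpl26, which sits by the exit tunnel and binds p53 mRNA, had 7.40, 7.68 and 7.61 in PGCs, 6.60, 6.38 and 6.66 in Max knockdown cells and 6.66, 6.81 and 6.93 in controls. Its PGC arrays stood apart, by 0.76 against control (adjusted p = 0.00037) and 1.02 against Max knockdown cells. Rpl23a, a docking site for nascent chain factors at the tunnel exit, was 0.63 above control and 1.01 above Max knockdown cells in PGCs, and fell by 0.38 after knockdown (adjusted p = 0.0092).

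Several genes gave different answers from different probes. For Rps24, a small subunit gene with alternative last exons, the probe used had 7.75, 8.27 and 8.20 in PGCs, 7.44, 7.07 and 7.26 in Max knockdown cells and 7.21, 7.42 and 7.29 in controls. On that probe PGCs rose by 0.77 (adjusted p = 0.0018), while Max knockdown cells and controls overlapped (-0.053, adjusted p = 0.82). A second Rps24 probe, filed under another transcript variant, had 7.999, 8.33 and 8.37 in PGCs, 7.48, 7.44 and 7.55 in Max knockdown cells and 6.65, 6.95 and 7.06 in controls. Its 3 groups were separate, with a rise of 0.60 ± 0.14 after knockdown (adjusted p = 0.0082 over all probes) and of 1.35 in PGCs. Another Rps24 probe differed by -0.0040 after knockdown and rose by 0.57 in PGCs. Rps24 was the only member of the 53 with several probes whose probes differed by over 1.5-fold after knockdown.

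In PGCs against control the probes of 10 members differed by over 1.5-fold and those of 5 were called in opposite directions. Rpl21, which rose most after Rpl39l and Rpl10l, shows this most plainly. The probe used had 0.53, 0.61 and 0.43 in PGCs, -1.16, -1.09 and -0.995 in Max knockdown cells and -0.99, -0.90 and -0.85 in controls. The other Rpl21 probe had -1.52, -1.71 and -1.74 in PGCs, -1.12, -0.92 and -0.75 in Max knockdown cells and -1.06, -0.97 and -0.97 in controls. Both probes read far below the median member level of 7.33. PGCs were thus the highest group on one probe (log2 difference 1.44 ± 0.09 against control) and the lowest on the other (-0.66 ± 0.11, adjusted p over all probes 0.00066). Ribosomal protein genes have many processed copies in the mouse genome, and what each probe reads besides its gene was not tested, since probe sequences were not used here.

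**Figure D5:**
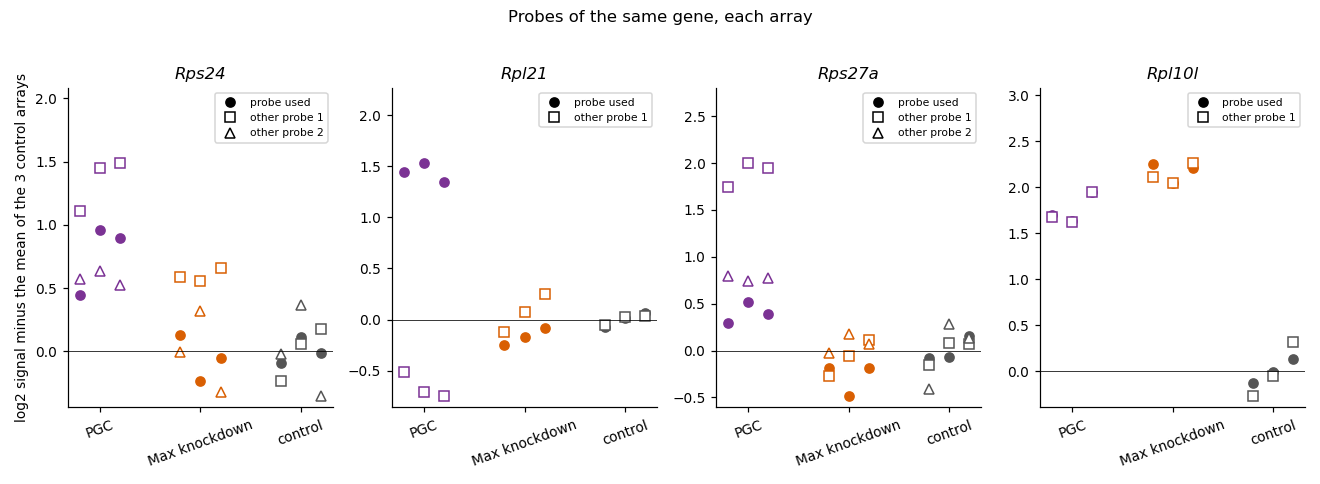
Signal of each probe of Rps24, Rpl21, Rps27a and Rpl10l on each array, as log2 signal minus the mean of that probe's control arrays, with PGCs left, Max knockdown cells in the middle and controls right. Filled points are the probe used. Only for Rps24 does an unused probe stand clear of the others in Max knockdown cells, and the Rpl21 probes part in opposite directions in PGCs.

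Other genes of translation were counted from lists, again on the 75th percentile scale. The shares of all genes to read them against are 43.2% higher and 32.4% lower in PGCs against control, 44.9% and 31.4% in PGCs against Max knockdown cells, and 18.1% and 22.0% after knockdown. These shares do not apply to counts with spike-in scaling or quantile normalization. With spike-in scaling each list held fewer genes that rose in PGCs against control (2, 0, 0 and 1, in the order given here, with 3, 0, 0 and 2 at an unadjusted p under 0.05 in limma) than that fell (8, 11, 5 and 8). After knockdown, spike-in scaling left 0 genes higher and 0 lower in all 4 lists, where the spread between slides keeps small differences from being called. At an unadjusted p under 0.05 in limma, 1 initiation factor gene was then lower and 1 assembly gene higher. Of 77 mitochondrial ribosomal protein genes, 54 rose and 7 fell in PGCs against control (median 0.53), and 4 rose and 23 fell after knockdown (median -0.17; 9 and 18 with quantile normalization). Mrpl41 and Mrps6 had the smallest p in PGCs, 3.50 and 2.33 above control on the log2 scale. Mrps30 and Mrps33 had the smallest after knockdown, at -0.67 and -0.62 (limma adjusted p = 0.00026 and 0.00043). The mitochondrial genes ran from -0.73 to 3.50 in PGCs against control. In PGCs against Max knockdown cells 55 were higher and 3 lower, where spike-in scaling gave 3 and 3.

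Of 44 initiation factor genes, 20 rose and 10 fell in PGCs against control (median 0.20), and 4 rose and 16 fell after knockdown (median -0.18; 8 and 12 with quantile normalization). The share that rose in PGCs, 45.5%, was near that of all genes, as was the median (0.18 over all genes). Eif2s2, the beta subunit of the factor that brings the initiator tRNA, fell by 1.44 in PGCs, and Eif5a2, a copy of Eif5a, rose by 1.54. After knockdown Eif4b, a helicase cofactor, fell by 0.88 and Eif1ax, which helps to find the start codon, by 0.79 (adjusted p = 0.00011 and 0.00046). Eif3g, a subunit of Eif3, was 1.46 higher in PGCs than in Max knockdown cells, and over the list 27 genes were higher and 6 lower there (0 and 8 with spike-in scaling, with 0 higher at an unadjusted p under 0.05 in limma).

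Of 19 elongation factor and other TOP mRNA genes, 11 fell and none rose after knockdown (limma, 0 higher at an unadjusted p under 0.05, median -0.35), and 8 rose and 4 fell in PGCs against control (median 0.13). With quantile normalization 6 fell after knockdown, and in PGCs against control 2 rose and 8 fell, which turns the balance. Nap1l1, a histone chaperone, and Eef2, the translocation factor, had the smallest p after knockdown, at -0.55 and -0.45 (adjusted p = 0.00081 and 0.0036). In PGCs Eef1a1 rose by 0.62, and Vim, the intermediate filament gene, fell by 3.63. Naca, of the nascent chain complex, was 0.92 above Max knockdown cells in PGCs. Fau, a ubiquitin-like fusion with small subunit protein S30, fell by 0.35 after knockdown (adjusted p = 0.013). Rack1, a scaffold on the small subunit, differed by -0.019 (adjusted p = 0.91).

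Of 47 ribosome assembly genes, 29 rose and 9 fell in PGCs against control (median 0.42), and 6 rose and 12 fell after knockdown (median -0.13). The share that fell after knockdown, 25.5%, was near that of all genes. Polr1b, a subunit of RNA polymerase I, was 2.08 above control and 2.37 above Max knockdown cells in PGCs, and Polr1e 1.70 above Max knockdown cells. Mdn1, an assembly ATPase, was 1.73 above control. After knockdown Nolc1, a nucleolar phosphoprotein, and Rpf2, which brings in the 5S particle, fell by 0.69 and 0.56 (adjusted p = 0.00070 and 0.00063).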

How the data were processed

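The members and the gene lists were chosen with earlier results of these data known. The deposited scanner files give the Cy3 intensity of every spot. They come from Feature Extraction 10.7.3.1, and the processed intensity used here was background-subtracted and detrended by that program, per the file headers. The deposited value table holds log2 values of the same arrays whose scale and centring are not stated. It ran in the same direction as the scanner values on every array (r across probes from 0.998 to 1.00), with column medians of 0, 0.34 and 0.39 for PGCs, -0.12, 0 and 0 for Max knockdown and -0.016, -0.070 and 0 for controls, and was used as an alternative. Labelling started from 100 ng of total RNA with spike-in transcripts, per the labels' protocols.

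Spots of a probe were averaged, and log2 of the processed signal had the array's 75th percentile subtracted. Left out were control spots and 65 probes with an outlier flag, which left 39364. Of these, 26012 were named through their RefSeq accession in a gene table of GRCm38.p6, which gave no coordinates since the array design is of mm9, and the other 13352 kept the name in the file. A gene was read by its probe with the highest mean over all arrays. Tested were the 20443 genes whose signal passed the background criterion on each array of 1 or more groups. The fit held all 9 arrays and used limma 3.58.1 (lmFit, eBayes; R 4.3.3), with Benjamini-Hochberg adjustment over all genes of a comparison and a threshold of 0.05. Probes were also fitted one by one, with adjustment over all probes. Errors are standard errors (SE), intervals cover 95%, and the number of arrays limits the precision. An exact permutation test of 3 arrays against 3 cannot go below p = 0.1, so calls rest on a spread shared across genes. A fit of simulated log2 values with known changes was tested first.

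Named with values are the paralogs and their partners, the 5 largest rises and falls in each comparison, a fixed set of stalk, 5S, fusion and disease genes, and 2 genes of each list with the smallest p. Rps23rg1 entered through its fall. A few genes that fit these rules are not reported here. Lists were ES cell, germ cell, gonadal somatic, fibroblast and blood and endothelial markers, and 4 lists of translation genes. Alternatives were other scalings, background correction, filters, probe rules, blocks, the deposited table and leaving out each array. Slide 1 held controls 1 and 2 and knockdowns 1 and 2, slide 2 held control 3 and knockdown 4, and PGCs lay on slides 3 and 4.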

Additional observations from a re-analysis of the deposited data

How the results depend on the processing

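Small differences are limited by the 3 arrays a group and by the scale set on each array, and the spike-in signal varied with the slide. Settings are named once and values follow in the order of the counts of higher and lower members and the median log2 difference. Where no count over all genes stands beside them, the counts describe the members only. With quantile normalization 7 members fell after knockdown (median -0.054, with 4315 of the 20443 genes tested lower). In PGCs against control 4 fell (median 0.19, against 0.10 over all genes). Against Max knockdown 43 rose (median 0.22, against 0.14 over all genes). With spike-in scaling 1 rose and 0 fell after knockdown, 1 rose in PGCs against control (median -0.60), and 0 rose against Max knockdown (median -0.42). Of all genes tested, 731 rose and 290 fell after knockdown there, since the spread between slides is large. With array median scaling 37 members fell after knockdown, with 5146 of all genes tested lower, and the PGC to knockdown median of the members was 0.65. With normexp on median signals 1 rose and 0 fell after knockdown (14 lower at an unadjusted p under 0.05 in limma, median -0.63). Of all genes tested, 565 rose and 319 fell there. In PGCs against control 4 rose and 0 fell (1 lower at an unadjusted p under 0.05), and against Max knockdown 44 rose and 1 fell (median 0.93). That setting is disturbed by 11 spots of knockdown replicate 1 and 3 of replicate 2 that lie below their local background. With that background replaced by the array's median, a choice made after seeing the data, no count or median moved beyond its limit. Without a filter 11 members fell after knockdown (3381 of all 32450 genes) and 1 in PGCs against control, where the all-gene median (0.50) passed that of the members (0.36). With the mean of a gene's probes 4 fell in PGCs against control. Over every probe, 4 of the 170 member probes tested rose and 46 fell after knockdown. In PGCs 111 of them rose and 8 fell against control, and 142 rose and 7 fell against Max knockdown. Among all probes tested, 4583 rose and 5486 fell after knockdown. The PGC probe counts have no counts over all probes beside them and describe the member probes only.

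Deviations from group means correlated at 0.37 and 0.39 between knockdown and control arrays of the same number, and at 0.51 between knockdown 4 and control 3, which share a slide but no number. The 6 other pairs lay between -0.33 and -0.027. This hints at a pairing of the ES cell arrays, but only 2 numbers are shared and the labels do not say what they mark. For PGCs and control the same numbers gave -0.031 to 0.025. With the replicate block 8 fell after knockdown, 1 fell in PGCs against control and 1 against Max knockdown. Within slide 1, 6 fell after knockdown. Leaving out 1 array gave 10 to 29 falls after knockdown and 1 to 2 in PGCs against control, with 44 to 64 and 68 to 77 rises in PGCs against control and Max knockdown. These ranges have no all-gene counts beside them and show only how far single arrays move the member counts. Of all genes, 40.1%, 75.6% and 76.3% were called in either direction in Max knockdown against control, PGCs against control and PGCs against Max knockdown. Of 17 paralogs and partners, 8, 13 and 15 were called in the same order. Rpl26 was counted among these as a partner, although its paralog is not a member. Spike-in scaling gave 1, 2 and 1, normexp 1, 3 and 8, slide 1 alone 5 after knockdown, and the replicate block 9 in PGCs against Max knockdown.

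Single genes changed sign as follows, as log2 differences, and the cause was not tested. Spike-in scaling moved all genes alike, so 78 of the 81 members above 0 in PGCs against control and 77 of 83 against Max knockdown turned. Among the genes named in the text, those turned in PGCs against control were Rpl11 (-0.84), Rpl22 (-0.69), Rpl22l1 (-0.54), Rpl23a (-0.33), Rpl26 (-0.20), Rpl28 (-0.67), Rpl3 (-0.83), Rpl36a (-0.22), Rpl36al (-0.64), Rpl39 (-0.56), Rpl3l (-0.73), Rpl5 (-0.58), Rpl7 (-0.79), Rpl7l1 (-0.29), Rplp0 (-0.81), Rplp1 (-0.54), Rplp2 (-0.29), Rps24 (-0.20), Rps27 (-0.72), Rps27a (-0.56), Rps4l (-0.35), Rps4x (-0.56), Rps6 (-0.66), Rpsa (-0.87) and Eef1a1 (-0.35). Against Max knockdown, Naca was at -0.061 and the second Rps24 probe at -0.24, and after knockdown Rpl3l was at 0.011 and Rack1 at 0.0037. With quantile normalization after knockdown, Rpl7 (0.072), Rplp0 (0.079), Rps23rg1 (-0.018), Rps24 (0.14), Rps4l (0.0091), Rpsa (0.14) and Rack1 (0.16) turned, and in PGCs against control Rpl11 (-0.069), Rpl3 (-0.077), Rplp0 (-0.034) and Rpsa (-0.10). With the mean of a gene's probes, Rps24 after knockdown was at 0.18, and in PGCs against control Rpl10 was at 0.13. After knockdown, normexp gave Rpl21 0.12 and Rpl3l 0.49, its repaired form Rpl3l 0.0063, array median scaling Rps23rg1 -0.044 and the second Rpl21 probe -0.00065, the replicate block and slide 1 alone that probe -0.0071, and slide 2 alone Rpl3l 0.064 and Rps23rg1 -0.0016. Leaving out 1 array gave ranges that cross 0 after knockdown for Rpl3l (-0.11 to 0.065), Rps23rg1 (-0.088 to 0.14), Rps24 (-0.14 to 0.040), Rack1 (-0.087 to 0.046), Rplp0 (-0.23 to 0.0035) and the second Rpl21 probe (-0.022 to 0.16).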

Other observations

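Beyond Rps24 and Rpl21, further members had probes that parted by over 1.5-fold in PGCs against control. Rps27a had a probe filed under another transcript with -0.41, -0.16 and -0.21 in PGCs, -2.43, -2.22 and -2.04 in Max knockdown cells and -2.31, -2.07 and -2.08 in controls in relative log2 signal. Its PGC arrays stood far above both ES cell groups (log2 difference 1.89 against control), where the probe used rose by 0.40. Rpl27a rose by 0.44 and 0.43 on 2 probes and fell by 0.56 on the other, dimmer one. Rpl31 rose on 3 probes (0.36 to 0.56) and fell by 0.36 on another. Rps3a1 differed by 0.16 on the probe used and by -0.70 on the other. Rpl13a and Rpl14 rose by 0.42 and 0.26 on the probe used and fell by 0.33 and 0.27 on the other. Rpl13, Rpl17 and Rps15a were also of this kind, as were in PGCs against Max knockdown cells Rpl15 and Rps12. What these probes read was not tested.

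By probe, 45 of the 53 members with several probes had the same sign on all of them after knockdown, 40 in PGCs against control and 46 in PGCs against Max knockdown cells.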
